A study of Anopheles gambiae with 8 samples.

Results

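Lysozymes of the c-type are small secreted enzymes that cut the peptidoglycan of bacterial cell walls. In insects they act in immune defense, in the hemolymph and other tissues, and in some species in digestion, and related copies often lie side by side in the genome. The steroid hormone 20-hydroxyecdysone (20E), which female mosquitoes produce after a blood meal, acts through a nuclear receptor, and how it bears on immune genes was the question of the study.

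The genes examined here are 7 of the 13763 genes in the count table, chosen by their identifiers as the c-type lysozyme genes near each other on chromosome arm 2L of *Anopheles gambiae*: AGAP007343, AGAP007344, AGAP007345, AGAP007346, AGAP007347, AGAP007385 and AGAP007386. The study names AGAP007347 as *LYSC1* and describes it as a c-type lysozyme. The sources used here give no name to the other 6, and whether each makes an active enzyme cannot be read from counts. All libraries came from Sua 4.0, an established *An. gambiae* cell line, with no difference in genotype between groups. There were 4 libraries from cells given 20E and 4 from cells given ethanol (EtOH) without it, harvested after 24 h, in 4 independent experiments numbered as replicates 1 to 4. The ethanol is written as 10% in the sample labels, while the study's methods describe undiluted ethyl alcohol. One line of cultured cells limits what the data represent, and in such bulk RNA a change in the share of cells that use a gene and a change in RNA per cell cannot be told apart.

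The libraries held 6865599 to 14878014 counted fragments, replicate 1 being the shallowest in both groups. Levels are CPM, the counts divided by the library total as scaled with edgeR's TMM factors, and CPM per kb of the listed gene length where genes are compared with each other. Genes were called at an adjusted p of at most 0.1 in edgeR's quasi-likelihood test of 20E against EtOH over 8180 genes. The main fit has treatment as its only term. Libraries with the same number deviated together from their group means (correlations of 0.646 to 0.835, against at most 0.0854 for other pairings). Deviations from a group mean cancel out within the group, which by itself lowers the correlations of the other pairings. A second fit, which adds the number as a term (the block), is given wherever it changes a call. Of 7 haemocyte marker genes taken from general knowledge of the species, 2 had no count in any library. The summed level of the 7 ranged from 252 to 896 CPM with 20E and from 193 to 411 CPM with EtOH. Most of that sum was 1 gene, AGAP004981, with means of 588 CPM after 20E and 283 CPM after EtOH. AGAP010815 averaged 56.6 and 32.0 CPM, and the rest had at most 46 counts in all libraries of a group. The part of these markers in the differences given here was not tested. The markers taken for midgut and salivary gland had at most 12 counts in all libraries of a group, whereas the fat body marker AGAP004203 averaged 163 ± 126 CPM in 20E cells and 209 ± 117 CPM in EtOH cells (SD, n = 4 each). That gene was lower after 20E in 4 of 4 pairs and was called lower with the block (log2 fold change -0.46, standard error 0.12, adjusted p = 0.0385, edgeR) but not in the main fit (adjusted p = 0.999). Its part in the differences given here was not tested.

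The 7 genes form an uneven cluster. On the AgamP4 assembly 5 of them lie on the minus strand within 6.04 kb, from AGAP007343 (2L, 45975679 to 45976926) to *LYSC1* (45981005 to 45981721), with AGAP007344 (45977240 to 45977881), AGAP007345 (45978939 to 45979603) and AGAP007346 (45979983 to 45980624) between them. The other 2, AGAP007385 (46223945 to 46224992) and AGAP007386 (46225913 to 46227541), lie 242 kb further along, on the plus strand. AGAP007346 and *LYSC1* are 380 bases apart. Positions inside genes (exon, intron, UTR) are not given in the table. Fragments that mapped to several places had been left out before deposit, so reads shared between near-identical copies are missing from these counts, and all levels in the family are less certain for that reason. AGAP007385 lies with its whole length of 1048 bases inside AGAP007384, a gene on the opposite strand.

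After 20E, *LYSC1* and its neighbor AGAP007346 stood higher in every replicate, AGAP007343 and AGAP007386 stood lower in every replicate, and the other 3 genes gave few counts or none. For AGAP007343 pairs 1, 2 and 4 differed by few counts (1 against 3, 17 against 20 and 3 against 5). Of the 7 genes, 4 passed the expression filter. AGAP007346 passed it only through its 20E libraries, so a call of it as higher follows in part from its entry. The main fit called 1 of these 4, AGAP007346, against 0.795% of all tested genes (0.513% higher and 0.281% lower after 20E). The block fit called 4 of 4 (2 higher, AGAP007346 among them, and 2 lower), against 17.4% of all tested genes (8.34% higher and 9.11% lower).

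**Figure D1:**
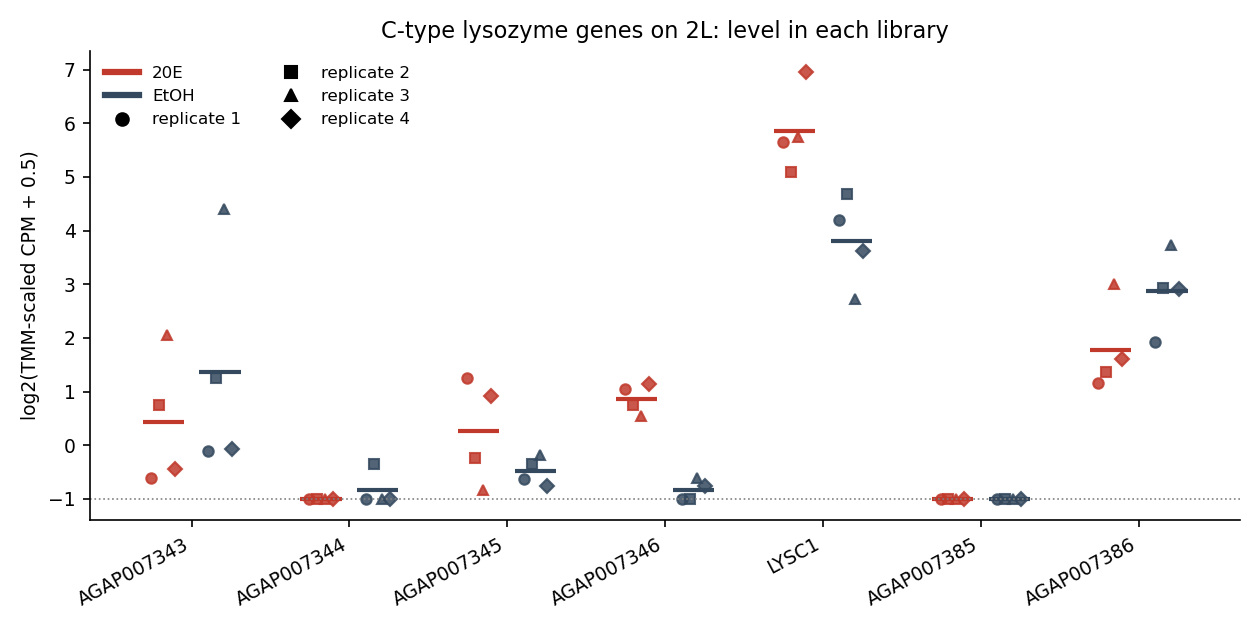
Level of each of the 7 lysozyme genes in each library, as log2(TMM-scaled CPM + 0.5), 20E in red and EtOH in dark blue, with a marker shape for each replicate number and a bar at the group mean. The dotted line is a count of 0. *LYSC1* and AGAP007346 show no overlap between the groups, whereas AGAP007343 and AGAP007386 overlap, with replicate 3 the highest library of both groups.

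*LYSC1* had 49.9, 33.8, 53.4 and 124 CPM in 20E replicates 1, 2, 3 and 4, against 18.0, 25.0, 6.11 and 11.9 CPM in EtOH replicates 1, 2, 3 and 4. The groups did not overlap, a pattern shared by 4.73% of the tested genes, and the 20E libraries were led by replicate 4. It averaged 65.2 ± 39.9 CPM in 20E cells and 15.2 ± 8.13 CPM in EtOH cells (SD, n = 4 each). The main edgeR fit put the log2 fold change at 2.10 (standard error 0.51) and made no call (adjusted p = 0.199). The block fit put it at 2.08 (standard error 0.42) and called the gene higher (adjusted p = 0.0118, edgeR). DESeq2 and edgeR's exact and likelihood ratio tests also called it without the block, at adjusted p of 0.00345, 0.00909 and 0.0078, whereas limma-voom did not (adjusted p = 0.189). The paired log2 ratios were 1.45, 0.42, 3.03 and 3.33 for pairs 1, 2, 3 and 4. All 4 pairs were thus higher after 20E, as in 17% of the tested genes, but their size differed widely: pair 2 combined the lowest 20E level with the highest EtOH level, while pairs 3 and 4 held the lowest EtOH levels.

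AGAP007346 gave almost no counts without 20E. There were 10, 17, 16 and 22 counts in 20E replicates 1, 2, 3 and 4, against 0, 0, 2 and 1 counts in EtOH replicates 1, 2, 3 and 4. These are 1.57, 1.18, 0.965 and 1.69 CPM after 20E, and 0, 0, 0.153 and 0.0905 CPM after EtOH. The paired log2 ratios were 2.05, 1.74, 1.17 and 1.89 for pairs 1, 2, 3 and 4, all above 0. The groups did not overlap, as in 4.73% of the tested genes. Spread among the 20E libraries was narrow, with a coefficient of variation of 25.2% against 61.2% for *LYSC1*. The summed level was 18.0 times as high after 20E as after EtOH, with an exact 95% interval of 5.89 to 89.6 that covers counting error only and rests on 3 EtOH counts. In edgeR's quasi-likelihood test the gene was called higher (log2 fold change 4.08, standard error 0.72, adjusted p = 0.0631), and with the replicate block too (log2 fold change 4.02, adjusted p = 0.00469). As it passed the filter only through its 20E libraries, the direction of these calls was set in part beforehand. The fitted fold change depends on the small number added for EtOH libraries without a count. The main fit's call was lost whichever of the 8 libraries was left out, at adjusted p of 0.110 to 0.246 in edgeR, with log2 fold changes of 3.71 to 4.90.

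AGAP007343, at the other end of the same group of 5, had 1, 17, 61 and 3 counts in 20E replicates 1, 2, 3 and 4, against 3, 20, 270 and 5 counts in EtOH replicates 1, 2, 3 and 4. EtOH replicate 3 alone therefore held 270 of the 298 EtOH counts, and 20E replicate 3 held 61 of the 82 after 20E. In CPM the gene had 0.157, 1.18, 3.68 and 0.231 after 20E, and 0.428, 1.87, 20.6 and 0.452 after EtOH, so that the groups overlapped broadly. The paired log2 ratios were -0.50, -0.50, -2.34 and -0.38, all below 0, as in 16.2% of the tested genes. The main fit gave a log2 fold change of -2.10 (standard error 1.35, adjusted p = 0.999, edgeR) and no call. The block fit called it lower, by -1.71 on the log2 scale (standard error 0.41, adjusted p = 0.0257, edgeR). Without EtOH replicate 3 the main fit gave 0.55 (adjusted p = 0.999), the opposite direction, without 20E replicate 3 it gave -3.38 (adjusted p = 0.928), and without pair 2 or pair 3 the gene no longer passed the filter.

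AGAP007386, the expressed gene of the distant pair, had 1.73, 2.08, 7.54 and 2.54 CPM in 20E replicates 1, 2, 3 and 4, against 3.28, 7.10, 12.8 and 7.06 CPM in EtOH replicates 1, 2, 3 and 4. Its highest library in each group was replicate 3 and its lowest replicate 1, and the groups overlapped through 20E replicate 3. Means were 3.47 ± 2.73 CPM in 20E cells and 7.57 ± 3.94 CPM in EtOH cells (SD, n = 4 each). The main fit did not call it (log2 fold change -1.11, standard error 0.57, adjusted p = 0.858, edgeR). Its paired log2 ratios were -0.76, -1.56, -0.73 and -1.31, again all lower after 20E, and the block fit called it lower (log2 fold change -1.23, standard error 0.24, adjusted p = 0.0101, edgeR). Without 20E replicate 3 the main fit gave -1.83, and without EtOH replicate 3 it gave -0.73, with no call in either (adjusted p = 0.380 and 0.959, edgeR).

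The remaining 3 genes fell under the expression filter. AGAP007345 had 12, 5, 1 and 18 counts in 20E replicates 1, 2, 3 and 4, against 1, 3, 5 and 1 counts in EtOH replicates 1, 2, 3 and 4. It was higher after 20E in 3 of 4 pairs and lower in pair 3, with paired log2 ratios from -0.65 to 1.89. The mean difference was 0.76 on the log2(CPM + 0.5) scale, which understates changes at such levels, and an exact two-sided permutation test over the 70 ways to label the libraries gave p = 0.286. AGAP007344 had 3 counts in all, each of them in EtOH replicate 2. AGAP007385 had 0 counts in 8 of 8 libraries, which allows up to 0.0596 CPM after 20E and 0.0717 CPM after EtOH at 3 counts over a group. Since its span lies wholly within AGAP007384, and the strand setting of the counting is not given in the sources used here, the part of that overlap in its count of 0 was not tested.

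**Figure D2:**
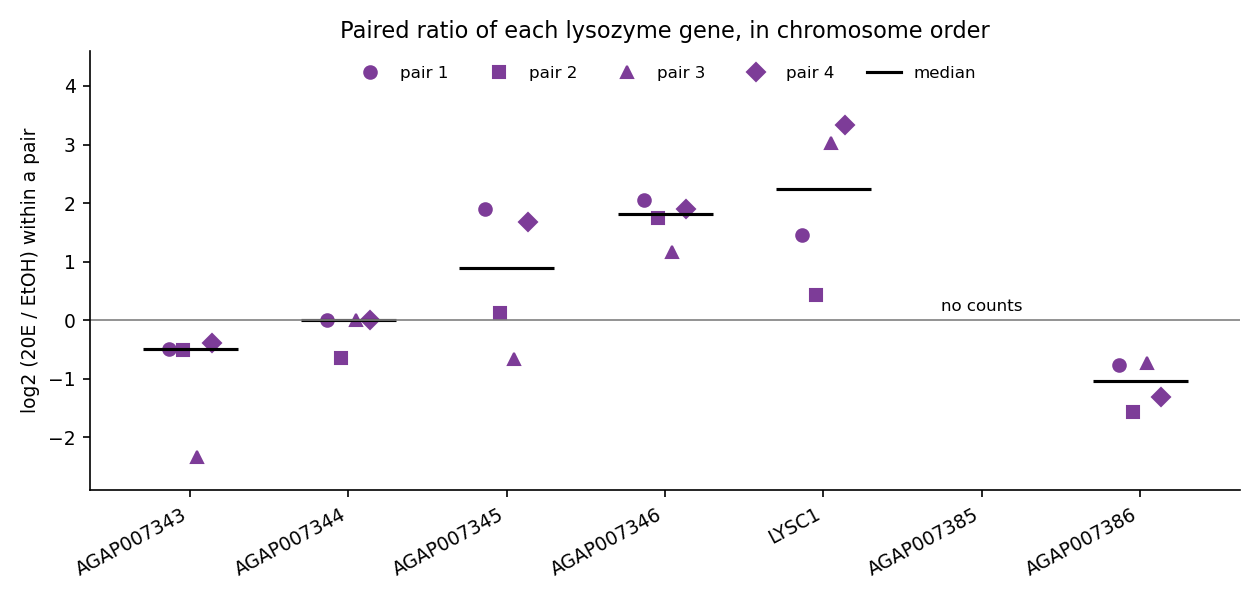
Paired log2 ratio of 20E over EtOH, log2((20E CPM + 0.5)/(EtOH CPM + 0.5)), for each lysozyme gene in chromosome order, with a marker shape for each pair and a line at the median. AGAP007346 and *LYSC1* lie above 0 in 4 of 4 pairs, and AGAP007343 and AGAP007386 below 0 in 4 of 4. Ratios of genes with few counts are drawn toward 0 by the 0.5 added.

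Per kb of gene length, *LYSC1* had the highest mean level of the 7 genes in both groups, and lysozyme genes elsewhere were not examined. It averaged 90.9 ± 55.6 CPM per kb in 20E cells and 21.3 ± 11.3 CPM per kb in EtOH cells (SD, n = 4 each). Among the 8180 tested genes this level lay at percentile 92.5 after 20E and at percentile 67.4 after EtOH. The listed length is the whole span from start to end, any introns included. Genes with a long span therefore rank lower by this measure, and the percentiles are not ranks of transcript abundance. After 20E no other member came near it: AGAP007386, AGAP007346, AGAP007345 and AGAP007343 had means of 2.13, 2.11, 1.38 and 1.05 CPM per kb, and the ranges of neighbors in this order overlapped. After EtOH the order below *LYSC1* was AGAP007343 (4.68 CPM per kb), AGAP007386 (4.64), AGAP007345 (0.336), AGAP007344 (0.109) and AGAP007346 (0.0947). Here AGAP007386 stood clear of AGAP007345 in every library, and the other neighbors in the order overlapped. *LYSC1* was above AGAP007343 in 3 of 4 EtOH libraries and below it in replicate 3, at 8.52 against 16.5 CPM per kb. AGAP007386 and AGAP007346 had nearly the same mean after 20E, but AGAP007386 was the higher of them in 1 of 4 20E libraries, replicate 3. After EtOH AGAP007344 and AGAP007346, of equal length, had 3 counts each and cannot be ordered. AGAP007343 was above AGAP007386 in 1 of 4 EtOH libraries, replicate 3, on which its place in the order rests.

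The share of *LYSC1* in the lysozyme counts was higher after 20E than after EtOH within every replicate number, which was not tested. *LYSC1* took 90.3%, 87.6%, 81.4% and 95.5% of all counts on the 7 genes in 20E replicates 1, 2, 3 and 4, against 82.4%, 72.4%, 15.2% and 60.6% in EtOH replicates 1, 2, 3 and 4. The groups overlapped, as the lowest 20E share lay below the highest EtOH share. The exact (Clopper-Pearson) 95% intervals, which cover counting error only, ran from 78.9% to 83.6% for the former and from 75.4% to 88.0% for the latter. In EtOH replicate 3 the share was far below the rest, with 80 *LYSC1* counts beside 270 of AGAP007343 and 168 of AGAP007386. These shares are of counts, which also reflect gene length.

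Whether members differed from each other in their response was tested with the log2 ratio of 2 members within each library, taken from CPM + 0.5, so that for genes with few counts the size of the ratio depends on the 0.5 added. The 4 members with at least 10 counts in at least 4 libraries gave 6 pairs. AGAP007346 met this limit only through its 20E libraries. A rise of AGAP007346 after 20E relative to another member therefore follows in part from that choice, and its tests are no independent support. The log2 ratio of *LYSC1* to AGAP007386 averaged 4.08 in 20E libraries and 0.93 in EtOH libraries, a difference of 3.15 with values from 1.99 to 4.64 over the 4 replicate numbers (3.30 with 0.1 CPM added in place of 0.5, and 2.76 with 2 CPM added). That of AGAP007346 to AGAP007386 averaged -0.91 in 20E libraries and -3.72 in EtOH libraries, a difference of 2.81 with values from 1.90 to 3.31. This value moved to 4.46 with 0.1 CPM added and to 1.52 with 2 CPM added, past the threshold in each case (adjusted p = 0.0857, exact permutation test). With 0.5 CPM added, the differences of 3.15 and 2.81 each had p = 0.0286 in an exact two-sided permutation test, the smallest that 4 against 4 libraries allow, and 0.0857 after Benjamini-Hochberg adjustment over the 6 pairs. AGAP007343 against *LYSC1* (difference -2.99) and against AGAP007346 (-2.64) did not pass, each at an adjusted p of 0.129 in the exact permutation test, although 4 of 4 replicate numbers had the same sign. With 2 CPM added AGAP007343 against *LYSC1* passed (difference -2.58, adjusted p = 0.0857, exact permutation test).

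Between members that stood on the same side, no difference passed with 0.5 CPM added, and the limits are wide. AGAP007346 and *LYSC1*, which lie next to each other, differed in response by -0.34, with values from -1.86 to 1.32 over the replicate numbers (adjusted p = 0.754, exact permutation test). The sign of this difference was set by the value added: it was 1.17 with 0.1 CPM (adjusted p = 0.309) and -1.24 with 2 CPM, where it passed the threshold (adjusted p = 0.0857, exact permutation tests). AGAP007343 and AGAP007386, which lie far apart, differed by 0.16, with values from -1.61 to 1.06 (adjusted p = 0.971, exact permutation test). The number of pairs past the threshold depended on single libraries. It was 0 without 20E replicate 1 or 4 or without any 1 of the EtOH libraries, and 4 without 20E replicate 3.

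The replicates also set the members apart within a group. AGAP007343 and AGAP007386 had their highest level in replicate 3 of both groups, while *LYSC1* had its lowest EtOH level there. In 20E replicate 3 *LYSC1* was second highest of its group. AGAP007346 was at its lowest of the 20E libraries and at its highest of the EtOH libraries in replicate 3. Its places rest on 16 counts against 17 in 20E replicate 2, and on 2 counts against 1 in EtOH replicate 4. Such counts are too few to order the libraries.

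Of the genes outside the family, the 5 whose log2 level followed *LYSC1* most closely over the 8 libraries were looked up among the 8176 other tested genes. The closest was *CEC1* (AGAP000693), a cecropin, one of the small antimicrobial peptides, with a Pearson correlation of 0.971. AGAP006278, described by the study as a putative D7 protein, AGAP000695, AGAP011210 and the cecropin *CEC3* (AGAP000694) followed, at 0.954, 0.953, 0.952 and 0.948. The main fit called none of these 5, with adjusted p of 0.215 to 0.606 in edgeR. With the block AGAP006278 (log2 fold change 1.02, adjusted p = 0.00174), AGAP000695 (2.74, adjusted p = 0.0618) and AGAP011210 (0.76, adjusted p = 0.0239) were called higher in edgeR, as were both cecropins. Of the 5, *CEC1* (X, 12440533 to 12441132), *CEC3* (12442174 to 12442986) and AGAP000695 (12443351 to 12444668) are neighbors on X. In all, 15 genes correlated above 0.9, and the median over all genes was 0.01. These correlations include the difference between the groups and the depth and pairing that the libraries share.

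**Figure D3:**
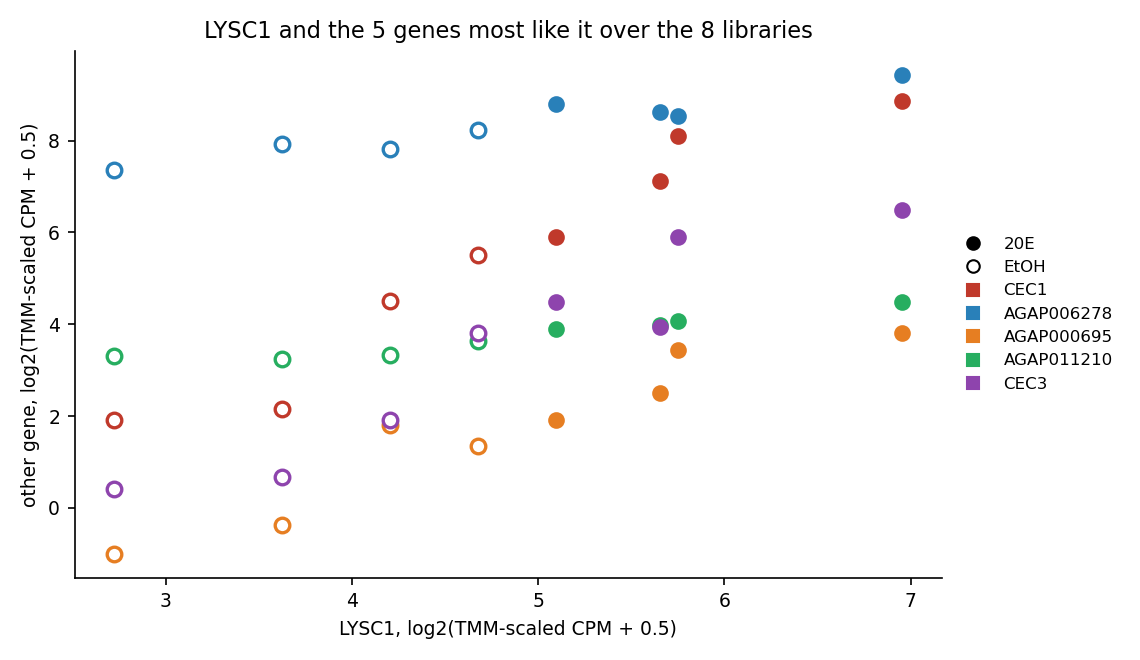
Log2 level, log2(TMM-scaled CPM + 0.5), of the 5 genes most like *LYSC1* (vertical axis) against that of *LYSC1* (horizontal axis) in the 8 libraries, with filled points for 20E and open points for EtOH. *CEC1* follows *LYSC1* most closely, at a correlation of 0.971, and spans a wider range.

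The cecropins were chosen here for their likeness to *LYSC1* in these libraries, so a like order of their pairs follows in part from that choice and is given as a description. The paired ratios of *CEC1* were 2.61, 0.39, 6.18 and 6.69 on the log2 scale for pairs 1, 2, 3 and 4, and those of *CEC3* were 2.03, 0.67, 5.47 and 5.82. Pair 2 was the weakest and pair 4 the strongest for all 3 genes. *CEC1* had 139, 59.3, 273 and 463 CPM in 20E replicates 1, 2, 3 and 4, against 22.2, 45.2, 3.28 and 3.98 CPM in EtOH replicates 1, 2, 3 and 4. As with *LYSC1*, EtOH replicate 2 was the highest and EtOH replicate 3 the lowest of their group, and the main fit called neither cecropin, at adjusted p of 0.254 for *CEC1* and 0.343 for *CEC3* (edgeR). With the block both were called higher, with log2 fold changes of 3.85 (standard error 0.99, adjusted p = 0.0336) and 3.45 (standard error 0.82, adjusted p = 0.0242) from edgeR.

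Other genes of bacterial defense were counted from lists drawn up from general knowledge of the species. Of 6 antimicrobial peptide genes 5 were tested. The main fit in edgeR called 0 of them, against 0.795% of all tested genes, with 3 at an unadjusted p under 0.05. DESeq2 and edgeR's exact and likelihood ratio tests each called 2 higher, and limma-voom 0. In either direction DESeq2 called 195 of 9318 genes. The exact test called 141, the likelihood ratio test 147 and limma-voom 62 of 8180. The block fit called 4 higher and 0 lower, against 8.34% higher and 9.11% lower over all tested genes. Their median log2 fold change with the block was 1.83, against 0.01 over all tested genes. The 2 calls besides the cecropins were AGAP008645 (log2 fold change 1.83, standard error 0.37, adjusted p = 0.0106) and AGAP011294 (log2 fold change 1.47, standard error 0.49, adjusted p = 0.0876), both from edgeR with the block and higher in 4 and 3 of 4 pairs. Of 7 genes listed as peptidoglycan recognition proteins, which bind the same polymer that lysozymes cut, 4 were tested. The main fit in edgeR called 0 of them, with 1 at an unadjusted p under 0.05, and so did DESeq2, limma-voom and edgeR's exact and likelihood ratio tests. The block fit called 1 higher and 2 lower, against 8.34% higher and 9.11% lower over all tested genes, with a median log2 fold change of 0.04. The 2 lower were AGAP005203, at -0.50 (standard error 0.08, adjusted p = 0.00421), and AGAP005205, at -0.68 (standard error 0.09, adjusted p = 0.00108), and the higher was AGAP005552, at 1.0 (standard error 0.34, adjusted p = 0.0887, higher in 3 of 4 pairs), all from edgeR with the block.

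The stretch between the first and the last lysozyme gene held 39 other genes, of which 20 were tested and 7 had no counts. The main fit in edgeR called 0 of the 20, against 0.795% of all tested genes, with 4 at an unadjusted p under 0.05. DESeq2 and edgeR's exact and likelihood ratio tests each called 3 higher (195, 141 and 147 genes called in all), and limma-voom 0. With the block 4 were called higher and 4 lower, against 8.34% higher and 9.11% lower over all tested genes. The median log2 fold change with the block was 0.09. The nearest tested genes past *LYSC1*, AGAP007348 and AGAP007349, were each higher after 20E in 4 of 4 pairs, as in 17% of the tested genes, but by different amounts. AGAP007348 begins 0.133 kb past the end of *LYSC1*, on the other strand, and was higher by only 0.29 on the log2 scale with the block (standard error 0.09, adjusted p = 0.0690, edgeR), with means of 60.5 ± 5.15 CPM in 20E cells and 49.5 ± 3.28 CPM in EtOH cells (SD, n = 4 each).

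AGAP007349, which begins 10.4 kb past the end of *LYSC1* and has no name in the study's table, differed more. Its level was 195, 96.8, 52.3 and 233 CPM in 20E replicates 1, 2, 3 and 4, against 19.4, 28.5, 5.11 and 30.0 CPM in EtOH replicates 1, 2, 3 and 4. The groups did not overlap, as in 4.73% of the tested genes. The main edgeR fit gave 2.80 on the log2 scale (standard error 0.62, adjusted p = 0.145) and no call, and the block fit 2.81 (standard error 0.24, adjusted p = 9.75e-05) and a call. It was 13th of the 8176 genes in likeness to *LYSC1*, with a correlation of 0.905.

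Beside AGAP007386, at the far end, AGAP007383 (46219079 to 46219793) and AGAP007384 (46220562 to 46225429) were also lower after 20E with the block, by -1.40 (standard error 0.20, adjusted p = 0.00189) and -1.57 (standard error 0.33, adjusted p = 0.0126) in edgeR. AGAP007384 had 2.68, 4.36, 10.6 and 4.62 CPM in 20E replicates 1, 2, 3 and 4, against 2.42, 7.48, 46.9 and 22.6 CPM in EtOH replicates 1, 2, 3 and 4. Replicate 3 was its highest library in both groups, as for AGAP007343 and AGAP007386, and pair 1 was not lower. AGAP007383 was lower in 4 of 4 pairs, with means of 3.92 ± 2.17 CPM in 20E cells and 10.6 ± 7.04 CPM in EtOH cells (SD, n = 4 each). The other calls with the block were AGAP007378 (0.85) and AGAP007379 (0.88), higher, and AGAP007366 (-0.39) and AGAP007374 (-0.69), lower, in log2 fold change.

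**Figure D4:**
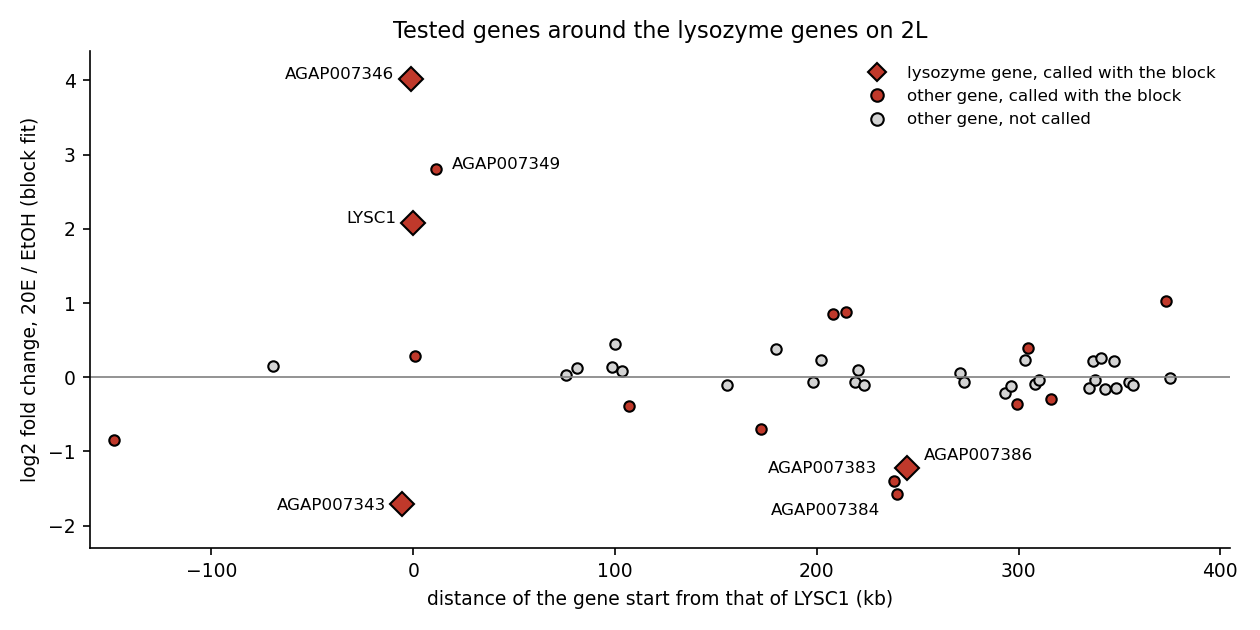
Log2 fold change of 20E over EtOH in edgeR's fit with the replicate block (vertical axis) for the tested genes around the cluster, by distance of their start from that of *LYSC1* in kb (horizontal axis). Diamonds are lysozyme genes and circles other genes, red where called at an adjusted p of at most 0.1. At the left AGAP007346 (4.02) and *LYSC1* (2.08) are higher and AGAP007343 (-1.71) is lower, and at the other end AGAP007386 (-1.23) is lower together with AGAP007383 and AGAP007384.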

How the data were processed

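RNA from Sua 4.0 cells was measured in 8 libraries, 4 after 20E and 4 after EtOH, grouped and numbered from the sample titles. The authors mapped read pairs with STAR 2.5.2b to the AgamP4 genome and counted them with featureCounts, leaving out multimapped, chimeric and one-ended fragments. The deposited values are whole-number counts per gene, one column a library, without normalization. The listed length equals the span from start to end for 100% of the genes. The counts were tested in R 4.3.3 with edgeR 4.0.16 (TMM, filterByExpr with minimum count 10 and minimum total 15, quasi-likelihood test, Benjamini-Hochberg adjustment over 8180 genes, limit 0.1). Standard errors were derived from the F statistic, as the size of the log2 change divided by its square root. Single values used log2(CPM + 0.5) and exact permutation tests.

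The replicate numbers pair the libraries, since the series text gives 4 independent experiments and deviations correlated within every number. No library was a copy of another (lowest chi-square per degree of freedom within a group 65.3). Intervals and limits for counts of 0 (3 counts over a group) cover counting error only, as fragments carried no molecular identifiers. Alternatives used DESeq2 1.42.0 and limma 3.58.1, other filters and tests, the block and left-out libraries. The fits were tested on simulated data. Named genes are the 7 members, the genes of each list that either fit called, and the 5 most like *LYSC1*. The members and lists were chosen with earlier results of these data known. Gene names come from the study. No sequences were used here.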

Additional observations from a re-analysis of the deposited data

Results flagged for a closer look

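Of 17 groups of 4 values examined (the CPM of each lysozyme gene in each treatment, and its paired log2 ratios), 5 held a library or pair set apart from the rest by a gap larger than Dixon's critical value of 0.829 of the group's range. Chance marks about 1 group in 20 where the 4 values are independent and normally distributed. Whether these values meet that condition was not tested, so the rate may differ here. That rate does not apply to AGAP007344, whose other values are all equal, and the ratio of pair 3 for AGAP007343 uses the same library as its CPM, so these 5 are not independent. EtOH replicate 3 had 20.6 CPM of AGAP007343, against at most 1.87 CPM in the other EtOH libraries, and pair 3 accordingly had a log2 ratio of -2.34 for that gene. In 20E replicate 3 AGAP007386 stood at 7.54 CPM, against at most 2.54 CPM in the other 20E libraries. The only counts of AGAP007344 were 3 in EtOH replicate 2 (0.280 CPM), which also gave its single paired log2 ratio other than 0, -0.64.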

How the results depend on the processing

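Of the 7 lysozyme genes, 1 was called in the main fit, 2 (AGAP007346 and *LYSC1*) by DESeq2 and by the exact and likelihood ratio tests of edgeR, and 0 at an adjusted p of at most 0.05. It was 4 with the replicate block, with the block and no expression filter, and with the block in DESeq2, 0 with any 1 library left out (edgeR, with 2 to 3 at an unadjusted p under 0.05), and 3 to 4 with the block and both libraries of 1 number left out. For *LYSC1* the log2 fold change was called at 2.09 by DESeq2, at 2.10 by the exact and the likelihood ratio test, at 2.08 with the block with and without the filter, at 2.11 with the block in DESeq2, and at 2.28, 2.69, 1.74 and 1.61 with the block and pair 1, 2, 3 or 4 left out. Without the block it was not called by limma-voom (2.18), with RLE size factors, another filter or none, a robust prior or the newer quasi-likelihood test. With 1 library left out it was 1.58 to 2.46 and never called. AGAP007343 turned to 0.55 without EtOH replicate 3 and ranged down to -3.38 with another library left out, and DESeq2 without the block gave it no p. Of the 6 pairs of members, 2 differed in response in the main test, 4 with 2 CPM added in place of 0.5, 0 to 4 with 1 library left out, and 0 under the replicate block, where an exact test on the signs of 4 pairs cannot pass the threshold. Pairs with AGAP007346 are in these counts, although it was admitted only through its 20E libraries. Over all genes 65 were called in the main fit, 195 by DESeq2, 141 by the exact test, 147 by the likelihood ratio test, 32 at the limit of 0.05, 1427 with the block, 1540 with the block and no filter, 1290 with the block in DESeq2, 16 to 65 with 1 library left out, and 844 to 1305 with the block and 1 pair left out. A newer version of the quasi-likelihood test, chosen after seeing the data, called 1 lysozyme gene and 75 genes in all. Levels per kb of coding length were not run. Fewer than 20 counts in a library, as in AGAP007343, AGAP007345, AGAP007346 and, in 20E replicate 1 (11 counts), AGAP007386, limit the precision of those genes.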
